A study of Homo sapiens with 4 samples.

Results

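The MYC locus on human chromosome 8q24 was described from H3K27ac HiChIP data of 4 colorectal cancer cell lines. It was taken as 127.9 to 129.2 Mb of chromosome 8 (hg19). H3K27ac, an acetyl mark on a lysine of histone H3, marks active promoters and enhancers. HiChIP joins DNA segments that lie close together in fixed nuclei and enriches for ligations that carry the mark. Each paired-end tag (PET) counted here is 1 ligation between listed segments, called anchors, or within 1 of them. The members were all filtered loops, and all pairs of an anchor with itself, that had an anchor midpoint in this interval. They came to 198 of 184225 filtered loops over the 4 libraries, of which HCT116 had 99, LS513 89, SW620 10 and SW480 0, and to 61 of 72787 same-anchor pairs. The locus was chosen because earlier results of these data had shown it high in HCT116, so its level in each line is a description and was not tested.

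HCT116, LS513, SW480 and SW620 are established lines from ATCC, grown without treatment. The labels give HCT116 as colorectal carcinoma, LS513 as Dukes' type C colorectal carcinoma, SW480 as Dukes' type B and SW620 as Dukes' type C colorectal adenocarcinoma. SW480 and SW620 were derived from a primary tumour and a metastasis of the same patient. Cells were fixed in 1% formaldehyde for 10 minutes. Each line had 1 library, so no value below has a replicate check and intervals cover counting error only. PETs carried no molecular identifiers. LS513 had 222113 filtered PETs, SW620 152421, HCT116 81579 and SW480 13885, and same-anchor PETs ranged from 130508 in SW480 to 1386645 in LS513. No annotation of hg19 was used, so exons, introns and cell type marker genes were not assigned to anchors. The start sites given to 1 kb were 128.231 Mb for CCAT1, 128.428 Mb for POU5F1B, 128.748 Mb for MYC and 128.807 Mb for PVT1.

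MYC encodes a transcription factor that drives cell growth and division, and it is a target of WNT signalling in colorectal epithelium. It is flanked by long stretches with few protein-coding genes that hold tissue-specific enhancers, several of them bound by the WNT effector TCF7L2 in colorectal cells. CCAT1, a long non-coding RNA gene, is transcribed from one of these enhancer regions. POU5F1B is a retrogene copy of the pluripotency factor gene POU5F1. PVT1 is a long non-coding RNA gene that hosts several miRNAs and contains enhancers of MYC. In RefSeq's GRCh38.p14 table the order along the chromosome is PRNCR1, CASC19, CCAT1, CASC21, CASC8, CCAT2, POU5F1B, CASC11, MYC, PVT1 and MIR1204, with pseudogenes and unnamed loci left out here. These neighbours were not placed on the anchors, since their coordinates follow another build.

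By listed loops the locus was dense in HCT116, less so in LS513, and nearly empty in SW480 and SW620. SW620 listed no anchor from 126712044 to 128804312, and SW480 none from 128205494 to 129509850. Loops there could not be counted in these libraries, whatever the signal. The folds over SW480 and SW620 given below include this lack of anchors. HCT116 held 387 filtered PETs there, or 4744 per 1000000 filtered PETs of the library (95% Clopper-Pearson interval 4284 to 5240). LS513 held 242 PETs, or 1090 per 1000000 (957 to 1236). SW620 held 13 PETs, or 85.3 per 1000000 (45.4 to 146). SW480 held 0 PETs, and a count of 0 allowed up to 216 per 1000000 at its depth. SW480 and SW620 therefore could not be ordered, since the rate in SW620 was below what 0 PETs allow in SW480.

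The HCT116 rate was 4.35 times that of LS513 (exact conditional 95% interval 3.70 to 5.13), 55.6 times that of SW620 (32.1 to 105) and, with a floor of 3 counts, at least 22.0-fold higher than that of SW480. The LS513 rate was 12.8 times that of SW620 (7.33 to 24.3) and at least 5.04-fold higher than that of SW480. A difference was called where the fold was at least 2, the interval lay off 1 and the higher library had at least 10 PETs. HCT116 was called higher than the highest other line at this locus, as it was in 2.29% of all genome tiles of 1.3 Mb with enough PETs. Taken singly, it was called higher than LS513 in 6.48% of tiles, than SW480 in 26% and than SW620 in 15.2%. LS513 was called higher than SW480 in 21.5% and than SW620 in 17.2%. The locus ranked 33 among 1612 tiles with PETs in HCT116, 296 among 1703 in LS513 and 1170 among 1660 in SW620.

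The fold between HCT116 and LS513 depended on what it was scaled by and on which loops were kept. It was 2.75 (2.33 to 3.24) per all PETs on 1 chromosome with same-anchor pairs included, and 8.75 (7.08 to 10.9) among loops at the authors' FDR under 0.01. In the latter each library's loops were kept by its own FDR, so different loops were summed. The loop from 128215200 to 128302418, for example, counted in HCT116 (29 PETs, FDR 0) but not in LS513 (5 PETs, FDR 0.174). Such a filter widens the fold by itself, and the interval does not cover it. Chromosome 8 as a whole was 1.27 times higher in HCT116 (1.22 to 1.33), and the fold at the locus was 3.42 (2.91 to 4.04) per filtered PETs of chromosome 8. No other tile of chromosome 8 with enough PETs, of 62, had a higher ratio of HCT116 to LS513. The adjoining tile at 126.6 to 127.9 Mb was at 4.0 (2.77 to 5.83), with 75 PETs in HCT116 and 51 for LS513. Tiles starting at 125.3 Mb (2.59, 1.996 to 3.36), 129.2 Mb (2.83, 1.57 to 5.11) and 130.5 Mb (3.81, 1.57 to 9.59) were raised too. That at 124 Mb was not (0.982, 0.574 to 1.62), and the median of tiles beyond 100 Mb was 1.14. Loops that join a tile to the locus count in both, as did all 26 HCT116 PETs and all 25 LS513 PETs at 129.2 Mb. That tile thus repeats PETs of the locus. By the tiles at 125.3, 126.6 and 130.5 Mb, the excess of HCT116 in loop PETs was not confined to the locus. Over the alternatives that left SW620 with PETs, the fold of HCT116 over SW620 ranged from 31.6, per all PETs on 1 chromosome, to 177, with loops of at least 2 PETs. That of LS513 over SW620 ranged from 10.98, with both anchors inside, to 30.1, with loops of at least 2 PETs. At the authors' FDR under 0.01 SW620 had 0 PETs, and with a floor of 3 counts HCT116 was at least 240-fold higher and LS513 at least 27.5-fold higher. Here too each library's loops were kept by its own FDR. SW620 had 1 loop of more than 1 PET.

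**Figure D1:**
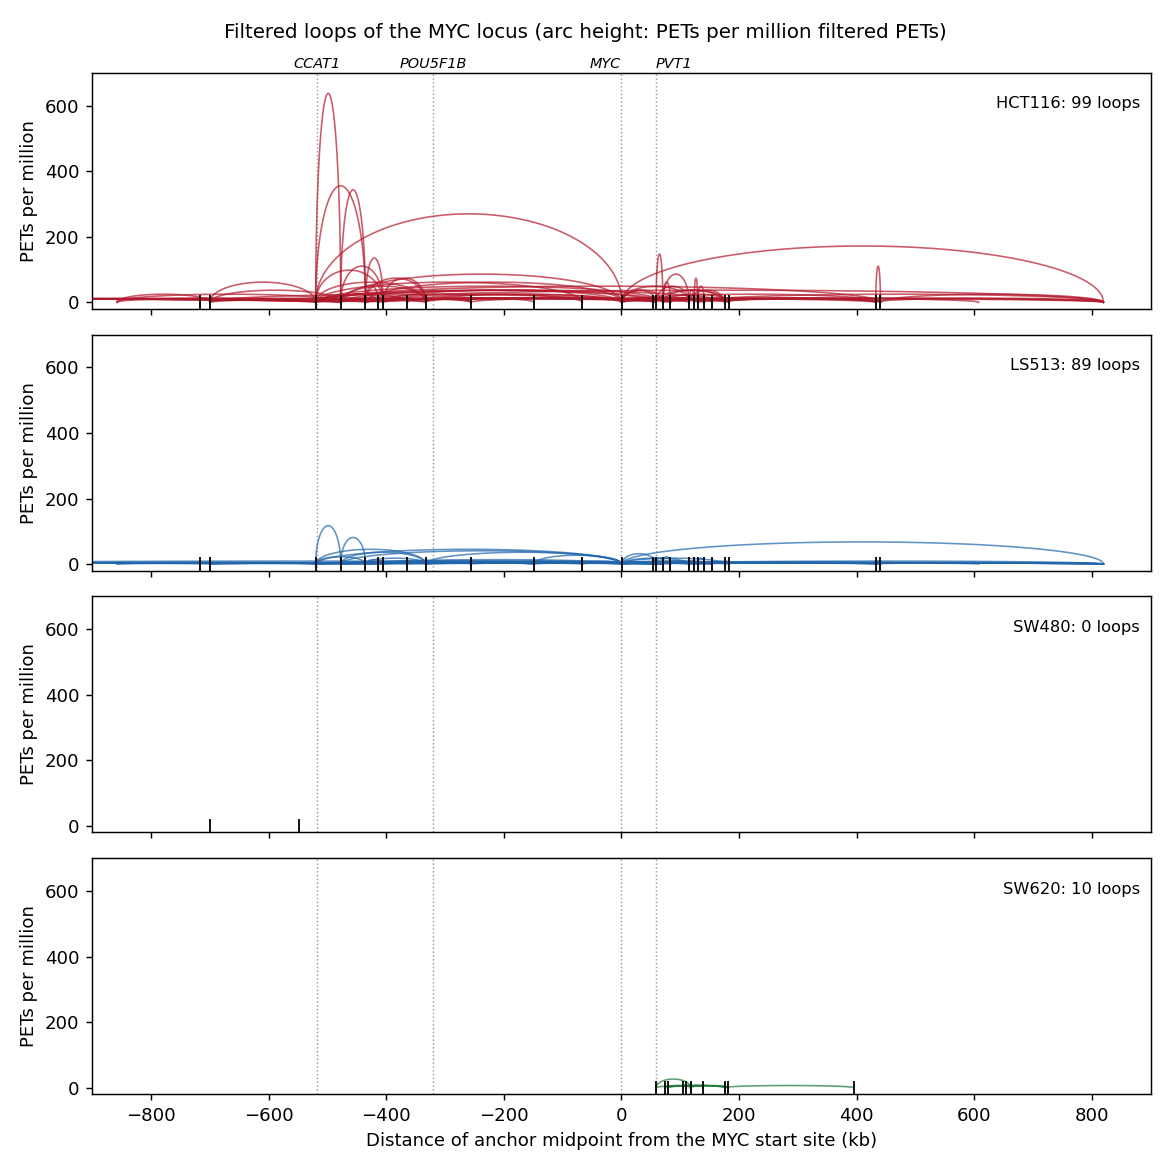
Filtered loops of the locus in the 4 libraries, drawn as arcs between anchor midpoints (distance from the MYC start site, kb) with height in PETs per 1000000 filtered PETs and anchors as ticks. HCT116 had 99 loops and LS513 89, led by arcs next to CCAT1 and arcs that reach MYC, whereas SW620 had 10 loops, all from the PVT1 start site onward, and SW480 had 0.

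Same-anchor pairs, in which both ends of a PET fall in 1 anchor, gave a second count at each listed anchor. They are members of the locus by the same rule, so they too are a description. HCT116 held 2542 such PETs in the locus, or 2946 per 1000000 same-anchor PETs (2832 to 3062), and LS513 held 1508, or 1088 (1033 to 1144). SW480 held 206, or 1578 (1370 to 1809), and SW620 held 300, or 355 (316 to 398). The ratio of HCT116 to LS513 was 2.71 (2.54 to 2.89), and 2.12 (1.99 to 2.26) per same-anchor PETs of chromosome 8, against 6.6% of tiles called higher genome-wide. HCT116 was 8.29 times higher than SW620 (7.35 to 9.38), with 21.6% of tiles called, and LS513 3.06 times (2.70 to 3.48), with 20.2% called. Against SW480, HCT116 was at 1.87 (1.62 to 2.16) and LS513 at 0.689 (0.595 to 0.801), and neither was called, so HCT116 was not called higher than the highest other line in same-anchor PETs. SW480 thus stood above LS513 in same-anchor pairs although it had no filtered loop in the locus, and its PETs lay almost wholly at 1 place.

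HCT116 and LS513 had the same 26 anchors in the locus, covering 224 kb. These libraries shared nearly all anchors genome-wide, so the anchor sets cannot be taken as independent. The largest lay in a row that starts at CCAT1. The first, at 128215200 to 128241150, covered the CCAT1 start site and was 26.0 kb long. The next, at 128250011 to 128291317, was 41.3 kb long, and the last, at 128302418 to 128323151, was 20.7 kb long. Only 0.160% of all anchors of the HCT116 library were as long as the second of them.

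The 3 anchors of the CCAT1 row held the most same-anchor PETs of the locus in HCT116. Per kb of anchor they held 16.7, 13.5 and 11.96 PETs, fewer than the 31.6 at the MYC start and the 22.0 at 129185261 to 129192173. The anchor at the CCAT1 start held 434 same-anchor PETs in HCT116 and 133 in LS513, or 503 and 95.9 per 1000000. The second anchor of the row held 556 and 269, or 644 and 194 per 1000000. The last held 248 and 86, or 287 and 62.0 per 1000000. In HCT116 the first and second ranked 66 and 29 among all anchors of the library by same-anchor PETs, and in LS513 they ranked 2719 and 1010. Ratios of HCT116 to LS513 were 5.24 (4.31 to 6.42), 3.32 (2.87 to 3.86) and 4.63 (3.61 to 5.99) in that order.

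The anchor at the MYC start site, 128745033 to 128752436, was 7.40 kb long and differed little between HCT116 and LS513 in same-anchor pairs. It held 234 PETs in HCT116 and 354 in LS513, or 271 and 255 per 1000000. The ratio was 1.06 (0.897 to 1.26), an interval that stays below a fold of 2. Set against this anchor within the same libraries, which cancels any scaling that the anchors share, the CCAT1 start anchor was 4.94 times higher in HCT116 than in LS513 (conditional 95% interval 3.80 to 6.43). For the other anchors of the row this ratio of ratios was 3.13 (2.49 to 3.92) and 4.36 (3.21 to 5.94).

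The POU5F1B start site had no anchor within 5 kb in any library. The nearest, at 128410368 to 128420476, ended 7.52 kb from it in HCT116 and LS513. It held 81 same-anchor PETs in HCT116 and 57 in LS513, and the ratio was 2.28 (1.61 to 3.26). Between CCAT1 and POU5F1B, the anchor at 128339083 to 128346238 held 39 and 9 PETs, and the ratio was 6.96 (3.32 to 16.3). The anchor at 128332558 to 128336743 held 23 and 5, and the ratio was 7.39 (2.75 to 24.9). In the stretch from POU5F1B to MYC, anchors at 149 and 66.3 kb before the MYC start held 18 and 25 PETs in HCT116 and 25 and 32 in LS513, and neither was called.

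Within and beyond PVT1 the anchors were mixed. The anchor that covers the PVT1 start, at 128804313 to 128810062, held 58 PETs in HCT116 and 71 in LS513, and the ratio was 1.31 (0.912 to 1.88). The next, at 128811033 to 128826091, held 173 and 66, and the ratio was 4.21 (3.15 to 5.68). The anchor at 128856452 to 128869877 held 156 and 77, and the ratio was 3.26 (2.46 to 4.33). At the far end, 441 kb after the MYC start, the anchor at 129185261 to 129192173 held 152 and 40, and the ratio was 6.11 (4.29 to 8.88). Neighbouring anchors of the PVT1 segment could thus be apart by their intervals, while the intervals at the MYC and PVT1 start sites both held 1.

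Of the 26 anchors, 25 had enough same-anchor PETs to be compared. HCT116 was called higher at 16, against 18.8% of such anchors genome-wide, and lower at 1, against 7.65%. The median ratio was 2.52 over the locus and 1.15 over all anchors tested. By segment, bounded at the midpoints between start sites, 4 of 5 anchors were called higher near CCAT1, 4 of 4 near POU5F1B, 0 of 3 near MYC and 8 of 13 near PVT1. The lower anchor, at 128030129 to 128032809, held 1 PET in HCT116 and 14 in LS513. In loop PETs 17 anchors could be compared, and HCT116 was called higher at 15, against 7.77% genome-wide, and lower at 0, against 7.78%. The largest loop ratio, 14.6 (6.80 to 36.0), was at 128339083 to 128346238, with 43 and 8 PETs. The locus was chosen by this contrast, so these counts are given as a description.

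**Figure D2:**
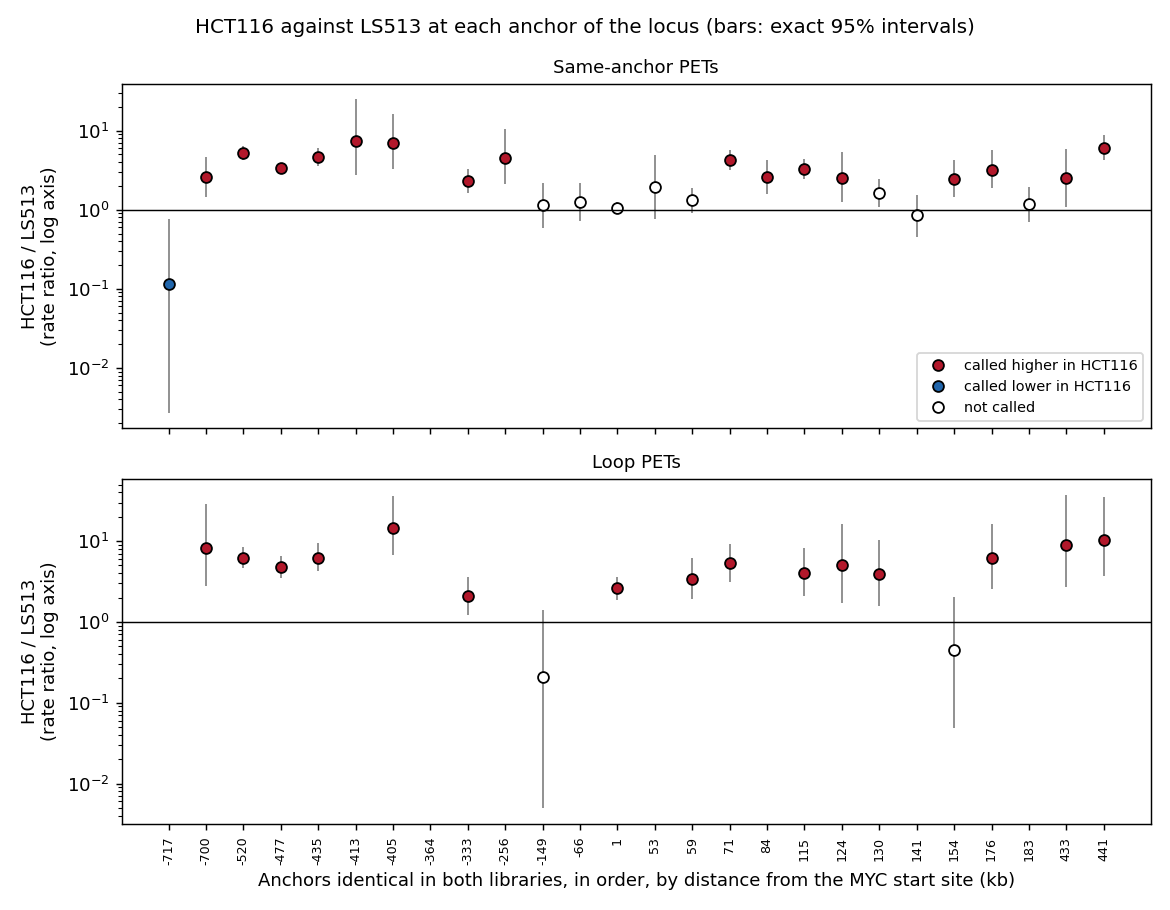
Rate ratio of HCT116 to LS513 (log axis) at the anchors of the locus that are identical in both libraries, in order along the chromosome, for same-anchor PETs (top) and loop PETs (bottom). Points are ratios and bars exact 95% intervals. In the top panel the 3 anchors of the MYC segment, from 149 kb before the start site to the start site itself, lie at 1.06 to 1.26, whereas the 3 anchors of the CCAT1 row lie at 3.32 to 5.24.

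An anchor outside the interval that looped to the locus went the other way. At 127567372 to 127571952, 1178 kb before the MYC start, LS513 held 504 same-anchor PETs and HCT116 51, and the ratio was 0.163 (0.119 to 0.217). This anchor was chosen for its value. It joined the MYC start anchor by 2 loop PETs in LS513.

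The make-up of the locus differed between HCT116 and LS513 by more than counting error. The CCAT1 segment held 50.1% of the same-anchor PETs of the locus in HCT116 (48.2 to 52.1) and 34.7% in LS513 (32.3 to 37.2). The MYC segment held 10.9% (9.71 to 12.2) and 27.3% (25.02 to 29.6). PVT1 shares were alike at 32.3% (30.4 to 34.1) and 32.6% (30.3 to 35.1), and POU5F1B shares were 6.73% (5.78 to 7.77) and 5.37% (4.29 to 6.63).

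Loop PETs differed in the same sense. Loops at the CCAT1 start carried 38.5% of the loop PETs of the locus in HCT116 (33.6 to 43.6) and 26.9% in LS513 (21.4 to 32.9). Those at the MYC start carried 19.6% (15.8 to 23.95) and 32.6% (26.8 to 38.9). Those at the PVT1 start, where 3 anchors lay within 5 kb, carried 15.8% (12.3 to 19.8) and 16.9% (12.4 to 22.3). A loop that joins these start sites counts under each. By number of loops the lines were closer. The CCAT1 start had 19 of 99 loops in HCT116 and 16 of 89 in LS513, and the MYC start had 19 in each.

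**Figure D3:**
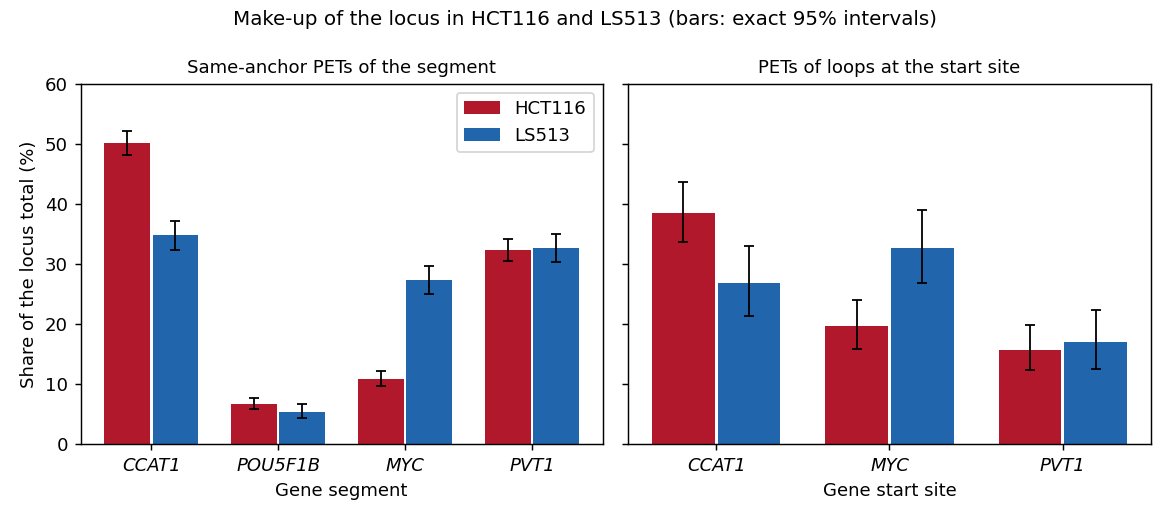
Share of the locus total (%) in HCT116 and LS513, for same-anchor PETs by gene segment (left) and for loop PETs at the CCAT1, MYC and PVT1 start sites (right); bars are shares and lines exact 95% intervals. CCAT1 takes the larger share in HCT116 and MYC in LS513 in both panels, while PVT1 shares are alike. The CCAT1 and MYC intervals do not overlap between the lines, but they cover counting error only, and the shares are a description.

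The loops with most PETs in HCT116 joined the 3 anchors of the CCAT1 row to each other. The first and second were joined by 52 PETs in HCT116, or 637 per 1000000, and 26 in LS513, or 117. This loop ranked 10 among all filtered loops of HCT116 and 743 in LS513. Among HCT116 loops with a span within 20% of its 42.5 kb, 3 of 3275 had as many PETs, itself included. Such counts by span, here and below, did not match anchor length. The anchors of this loop were 26.0 and 41.3 kb long, as were only 0.921% and 0.160% of HCT116 anchors or longer ones.

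The outer anchors of the row were joined by 29 PETs in HCT116 and 5 in LS513, and the ratio was 15.8 (6.04 to 52.2). The second and the last were joined by 28 and 18, and the ratio was 4.24 (2.26 to 8.13). The outer pair thus separated the lines most, although its interval overlapped that of the inner pairs. In all, PETs with both ends in the CCAT1 segment numbered 118 in HCT116 and 50 in LS513, and the ratio was 6.43 (4.58 to 9.13).

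In both lines the MYC start anchor was joined over a long distance to CCAT1. The loop from the MYC start to the CCAT1 start spanned 521 kb and held 22 PETs in HCT116, or 270 per 1000000, and 10 in LS513, or 45.0. The ratio was 5.99 (2.72 to 14.2). Only 2 of 2958 HCT116 loops of like span had as many PETs, itself included, and 31 of 7013 in LS513. The MYC start was joined to the second anchor of the row by 7 PETs in HCT116 and 9 in LS513, and to the last by 5 and 3.

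A longer loop went in the other direction. MYC was joined to an anchor at 129565149 to 129570635, 819 kb away and beyond the interval, by 14 PETs in HCT116 and 15 in LS513. These were 172 and 67.5 per 1000000, and the ratio was 2.54 (1.14 to 5.65). It was the strongest loop of the MYC start in LS513 and the next after CCAT1 in HCT116. Of loops of like span, 4 of 2292 had as many PETs in HCT116 and 6 of 5465 in LS513. That anchor held 110 same-anchor PETs in HCT116 and 85 in LS513.

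Over all partners, the MYC start anchor had 19 loops in each line, with 76 PETs in HCT116 and 79 in LS513. Per 1000000 these were 932 and 356, and the ratio was 2.62 (1.89 to 3.64), while its same-anchor pairs were at 1.06. These ratios use different totals. Filtered PETs were 81579 of 956430 PETs on 1 chromosome in HCT116 and 222113 of 1642322 in LS513. Per all PETs on 1 chromosome the locus fold fell from 4.35 to 2.75. Against those totals the 76 and 79 PETs of the MYC start lie less than 2-fold apart. The excess there is thus called per filtered PETs only. The gap between 2.62 and 1.06 is thus not free of scaling. Of the loop PETs of the MYC start anchor, 47.4% (35.8 to 59.2) went to the CCAT1 segment in HCT116 and 29.1% (19.4 to 40.4) in LS513. To PVT1 went 23.7% (14.7 to 34.8) and 26.6% (17.3 to 37.7). To anchors beyond the interval went 19.7% (11.5 to 30.5) and 22.8% (14.1 to 33.6). All these intervals overlap between the lines.

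Nearer contacts of MYC were too few to compare between the lines. The MYC start was joined to the anchor 149 kb before it by 6 PETs in LS513 and 0 in HCT116. It was joined to the anchor near POU5F1B by 8 PETs in LS513 and 2 in HCT116, and to the PVT1 start by 7 and 3. None of these reached 10 PETs. With 0 PETs in HCT116, up to 36.8 per 1000000 are allowed, above the 27.01 per 1000000 of the 6 PETs in LS513.

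**Figure D4:**
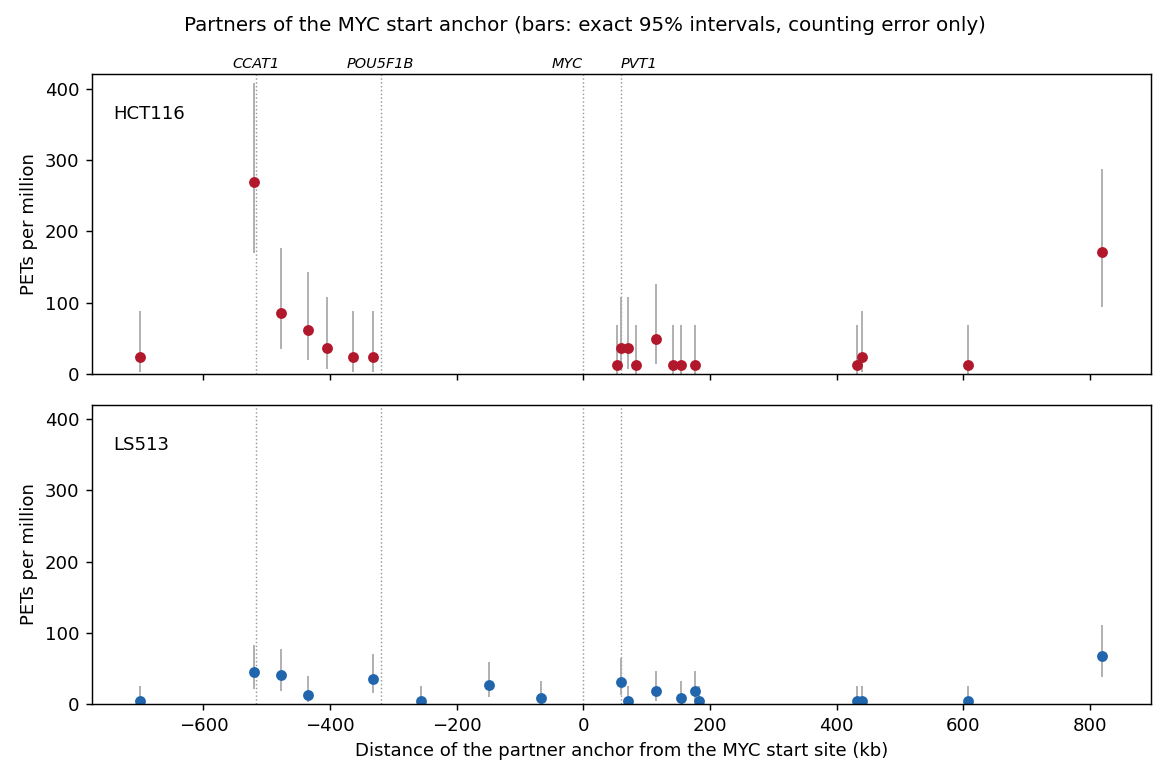
Partners of the MYC start anchor in HCT116 (top, 19 partners) and LS513 (bottom, 18 of 19 partners, the other lying 1178 kb upstream), by distance from the MYC start (kb) and PETs per 1000000 filtered PETs; bars are exact 95% intervals. The CCAT1 start stands at 270 in HCT116 and 45.0 in LS513, and the anchor 820 kb downstream at 172 and 67.5.

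The CCAT1 start had the largest share of its loop PETs within its own segment. Its start anchor had 19 loops with 149 PETs in HCT116 and 16 loops with 65 PETs in LS513, and the ratio was 6.24 (4.63 to 8.49). Of these PETs 57.7% (49.4 to 65.8) stayed in the CCAT1 segment in HCT116 and 49.2% (36.6 to 61.9) in LS513. The MYC segment took 18.1% (12.3 to 25.3) and 16.9% (8.76 to 28.3). With the anchor near POU5F1B it shared 5 PETs in HCT116 and 10 in LS513, and the ratio was 1.36 (0.365 to 4.37) that was not called.

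PVT1 was looped mainly within its own segment. Loops at the PVT1 start held 61 PETs in HCT116 and 41 in LS513, and the ratio was 4.05 (2.68 to 6.17). Of these, 65.6% (52.3 to 77.3) stayed in the PVT1 segment in HCT116 and 51.2% (35.1 to 67.1) in LS513. The strongest in HCT116, from the start anchor to the next one, 11.4 kb apart, held 12 PETs there and 4 in LS513, and the ratio was 8.17 (2.48 to 34.7). The anchor near POU5F1B, taken with a tolerance of 20 kb, had 27 loop PETs in HCT116 and 35 in LS513, and the ratio was 2.10 (1.22 to 3.57).

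PETs were also summed over pairs of segments, and the ratio of HCT116 to LS513 could be compared where 1 library had at least 10. PETs from the CCAT1 to the POU5F1B segment numbered 55 in HCT116 and 28 for LS513 (ratio 5.35, 3.33 to 8.76). From CCAT1 to MYC they numbered 41 and 27 (ratio 4.13, 2.48 to 6.99), and from CCAT1 to PVT1 23 and 12 (ratio 5.22, 2.49 to 11.5). Within PVT1 they numbered 72 and 43 (ratio 4.56, 3.08 to 6.82). From POU5F1B to MYC they numbered 10 and 11 (ratio 2.48, 0.942 to 6.42), which was not called. From MYC to PVT1 they numbered 18 and 23 (ratio 2.13, 1.08 to 4.13), and from MYC to anchors beyond the interval 15 and 18 (ratio 2.27, 1.06 to 4.77). Folds between segments were not rescaled by other totals, so calls near a fold of 2 are given on this scale only. Loops with both ends in the MYC segment held 0 PETs in HCT116 and 9 in LS513, under the minimum for a call. Most of these intervals overlap, so no order among the pairs of segments is read from them.

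Loops could be compared singly only where 1 library had at least 10 PETs. Of 8 such loops 7 were called higher in HCT116, against 6.53% of loops genome-wide, and 0 lower, against 6.78%. The exception was the loop from CCAT1 to the anchor near POU5F1B. The locus was chosen by this contrast, and some of these loops reached 10 PETs in HCT116 only. These counts are therefore a description, on the scale of filtered PETs. Of the 99 loops of HCT116, 51 were also listed in LS513, which is 51.5% of the HCT116 loops and 57.3% of the 89 in LS513. Genome-wide these shares were 62.1% and 34.0%. The unshared loops held at most 8 PETs in HCT116 and 6 in LS513.

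The authors' FDR values also differed, while loop spans were not set apart by their intervals. Weighted by PETs, loops of HCT116 had a median span of 84.6 kb (72.0 to 103) and those of LS513 145 kb (84.6 to 175). All filtered loops of these libraries were at 66.8 and 72.5 kb. With each loop counted once the order turned, at 222 kb in HCT116 and 187 kb in LS513. In the authors' deposited table, an FDR under 0.01 was given to 38 of 99 loops in HCT116, or 38.4% (28.8 to 48.7), and 12.8% of all loops of the library. In LS513 it was given to 16 of 89, or 18.0% (10.6 to 27.5), and 18.2% of all loops. In SW620 it was given to 0 of 10.

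SW480 had 2 anchors in the locus, and neither lay at a start site. The anchor at 128037170 to 128058092, 700 kb before the MYC start and 20.9 kb long, held 195 same-anchor PETs and ranked 19 in the library. These were 1494 per 1000000, where the overlapping anchor of 4.72 kb held 35 PETs in HCT116 (40.6 per 1000000) and 22 in LS513 (15.9). The ratios were 36.8 (25.6 to 54.4) and 94.2 (60.5 to 154), and the anchor lengths differ. SW620 had no overlapping anchor there. The other SW480 anchor, at 128195617 to 128205493, held 11 PETs and ended 25.5 kb before the CCAT1 start.

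SW620 had 10 anchors, all from the PVT1 start onward. The PVT1 start anchor was the same interval as in HCT116 and LS513 and held 21 same-anchor PETs, or 24.9 per 1000000. At 8 SW620 anchors that overlapped 6 of HCT116 and LS513, SW620 held 119 PETs (141 per 1000000), HCT116 479 (555) and LS513 311 (224). HCT116 was thus 3.94 times higher (3.22 to 4.86) and LS513 1.59 times (1.28 to 1.98). The overlapping anchors covered 30.1 kb in SW620 and 53.8 kb in HCT116 and LS513. Per 1000000 same-anchor PETs and per kb of anchor, HCT116 stood at 10.3, SW620 at 4.68 and LS513 at 4.17, so the order of LS513 and SW620 turned with the scaling by length.

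Within the PVT1 segment SW620 held 13 loop PETs, HCT116 72 and LS513 43. The HCT116 rate was 10.3 times that of SW620 (5.69 to 20.4) and the LS513 rate 2.27 times (1.198 to 4.60). Of the 13 anchors of HCT116 and LS513 in the segment, only 6 overlapped anchors of SW620. These folds include that difference in anchors and their lengths. The strongest SW620 loop ran from the PVT1 start to 128861718 to 128869877, with 4 PETs, where overlapping loops held 4 in HCT116 and 2 in LS513. The anchor with most same-anchor PETs in SW620, at 129130398 to 129156890, held 181 PETs (214 per 1000000), 396 kb after the MYC start. HCT116, LS513 and SW480 had no anchor overlapping it.

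**Figure D5:**
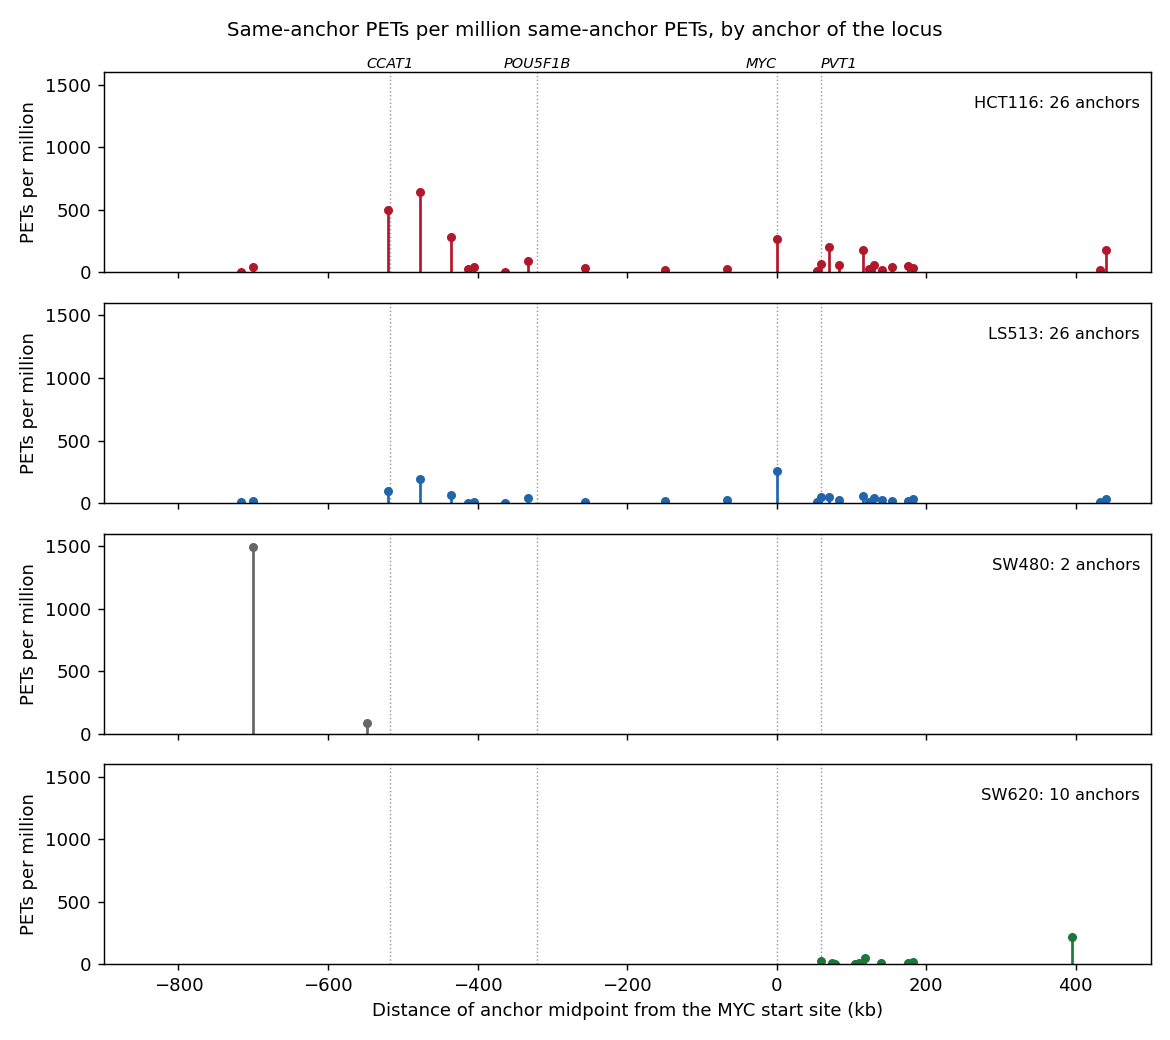
Same-anchor PETs per 1000000 same-anchor PETs of the library at each anchor of the locus, by distance of the anchor midpoint from the MYC start site (kb). HCT116 peaks in the CCAT1 row, LS513 at the MYC start (255), SW480 at a single anchor 700 kb before MYC (1494) and SW620 at 1 anchor 396 kb after it (214).

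The MYC start site lay in a stretch without anchors in both SW480 and SW620. In SW620 no anchor was listed from 126712044 to 128804312, or 2.09 Mb, and in SW480 none from 128205494 to 129509850, or 1.30 Mb. Of the 24532 stretches between anchors of SW620, 198 were longer, and of the 9327 of SW480, 481 were. HCT116 held 16 anchors with 1796 same-anchor PETs in the SW620 stretch, and 25 anchors with 2506 in the SW480 stretch. LS513 held 16 with 1536 and 25 with 1473.

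Most anchors of such strength did overlap one in SW480 or SW620. Of 275 identical anchors with at least the same-anchor PETs of the MYC start anchor in both HCT116 and LS513, 246 overlapped an anchor of SW620, or 89.5% (85.2 to 92.8). In SW480 193 did, or 70.2% (64.4 to 75.5). Of all 20526 anchors with same-anchor PETs in both lines, 69.3% overlapped one of SW620 and 25.3% one of SW480. In the locus 6 of 25 did so for SW620 and 1 of 25 for SW480. The tables list only pairs between a library's own anchors, so 0 PETs at the MYC start in SW480 and SW620 says that no anchor was listed there and does not measure acetylation. No locus anchor overlapped one in all 4 libraries. How the anchors were called is not given in the sources used here, and its part in this absence was not tested.

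SW480 and SW620 thus shared no anchor in the locus. SW480 was 4.44 times higher in same-anchor PETs (3.70 to 5.32), as it was called in 20.8% of tiles, but its PETs lay before the CCAT1 start and those of SW620 from the PVT1 start onward.

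Pairs that the choice of the locus did not use gave few repeated contacts. Pairs on chromosome 8 over 2 Mb apart numbered 29 PETs in HCT116, 37 for LS513, 0 for SW480 and 5 for SW620. Per 1000000 such PETs of the library these were 2565 (1718 to 3681), 1132 (797 to 1559), 0 (up to 2673) and 269 (87.4 to 628). Pairs with other chromosomes numbered 121 PETs in HCT116, 110 for LS513, 14 for SW480 and 53 for SW620, or 3952 (3280 to 4720), 1652 (1358 to 1990), 3511 (1921 to 5883) and 937 (702 to 1226) per 1000000. On this scale HCT116 exceeded LS513 in both kinds of pairs, by intervals that do not overlap. Per 100 same-anchor PETs of the locus the interchromosomal PETs ran the other way, at 4.76 in HCT116 and 7.29 in LS513, against 3.55 and 4.80 in the whole libraries. The pairs over 2 Mb apart turned likewise, with 29 PETs beside 2542 same-anchor PETs in HCT116 and 37 beside 1508 in LS513. The whole libraries lay in the same order, with 11307 such PETs beside 863012 same-anchor PETs in HCT116 and 32700 beside 1386645 in LS513. This order is thus not particular to the locus. The MYC start anchor took 16 of the interchromosomal PETs in HCT116 and 14 in LS513.

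Of 1049 other tiles with at least 10 PETs in HCT116, those nearest to the locus in log2(PETs per 1000000 + 1) over the 4 lines were not close. The nearest was 229.3 to 230.6 Mb of chromosome 1, at a Euclidean distance of 2.89, where HCT116 had 1005 PETs per 1000000, LS513 1882, SW480 0 and SW620 269. Next came chromosome 10 at 100.6 to 101.9 Mb (2.94) and chromosome 8 itself at 17.4 to 18.7 Mb (3.13).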

How the data were processed

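Per the labels, MboI digestion, biotin fill-in and ligation preceded immunoprecipitation for H3K27ac, and Tn5 made the libraries. The submitters' processing notes name HiC-Pro and hg19 (GRCh37). Which program called the loops is not given in the sources used here. Each pair of anchors came with a deposited count of PETs. A deposited table named for mango added a p-value per loop, read here as adjusted to an FDR from its values, since it has no header. Anchor starts were taken as counted from 0, as in BEDPE, and are printed from 1. Chromosomes 1 to 22 and X were used. Filtered loops spanned 5 kb to 2 Mb.

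The locus, its start sites and lists were chosen with earlier results of these data known. Loops were counted once if an anchor midpoint lay inside. Rates were per 1000000 filtered or same-anchor PETs. An anchor within 5 kb of a start site was at it. Segments met at midpoints between start sites. Intervals are exact at 95%, and they treat PETs as independent. Genome tiles had the length of the locus and its phase. The text names the 4 genes of the locus, and in HCT116 and LS513 the 3 loops and 3 anchors with most PETs. Fewer are named for SW480 and SW620. Other anchors were chosen after their values were seen. Calls were tested on simulated data. Alternatives covered scaling, minimum PETs, FDR, anchor overlap and start site tolerance. Promoter sequences and miRNAs were not used here. Computations ran in Python 3.11.15 with scipy 1.17.1, numpy 2.4.6 and pandas 2.3.3, and plots in matplotlib 3.10.9.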

Additional observations from a re-analysis of the deposited data

How the results depend on the processing

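Of 55 alternative values, 46 kept their direction and call or stayed within the interval of the reported value, and 9 moved. The folds between lines kept their calls under every alternative that gave a value. Folds at start sites, of single loops and of pairs of segments were not listed per all PETs on 1 chromosome. On that scale the fold at the MYC start lies below 2. The HCT116 to SW620 fold ranged from 31.6, per all PETs on 1 chromosome, to 177 with loops of at least 2 PETs, and at the authors' FDR under 0.01 it was at least 240-fold with a floor of 3 counts. Both the minimum of PETs and the FDR were applied within each library, which by itself widens a fold. All 9 moves came from counting each loop once. The share of loops within the CCAT1 segment then fell to 6.06% in HCT116 and 4.49% in LS513, and that from CCAT1 to MYC to 5.05% in HCT116. The share within PVT1 rose to 23.2% and 24.7%, and that from MYC to anchors beyond the interval fell to 2.02% and 3.37%. Median spans became 222 and 187 kb. Scaling by chromosome 8 left 14 anchors called higher in HCT116 by loop PETs and 11 by same-anchor PETs. Restriction to anchors overlapping in all 4 libraries gave no value, since the locus had none. SW480, with the fewest PETs, limits every comparison with it. No paired analysis was possible because each line had 1 library.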

Other observations

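In SW620 the anchor at 129130398 to 129156890 held 42 of the 53 interchromosomal PETs of the locus, and 13 of these joined chromosome 16, at 12 anchors spread from 50400413 to 87966909. Chromosome 16 took 24.5% of the interchromosomal PETs of the locus in SW620 (13.8 to 38.3), against 5.86% for all of chromosome 8. In HCT116 it took 8.26% (4.03 to 14.7) and in LS513 9.09% (4.45 to 16.1), against 5.51% and 5.21% for all of chromosome 8, and in SW480 0 of 14. This anchor was singled out after its values were seen, and no cause was tested.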
